A study of Mus musculus with 2 samples.

Results

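The 9 genes for leukocyte adhesion and endothelial junction molecules, Icam1, Icam2, Vcam1, Sele, Selp, Pecam1, Cdh5, Esam and Madcam1, were followed across mouse liver cells, 9 of the 30406 genes that both libraries list. The members were chosen by name and matched by Ensembl identifier, and all 9 are described whatever their values. Liver cells were profiled singly by droplet RNA sequencing, with 1 library for healthy mice and 1 for mice given CCl4 (carbon tetrachloride), a hepatotoxin whose repeated dosing scars the liver. All mice carried Col1a2CreER:Rosa26tdTomato, in which the promoter of the collagen gene Col1a2, used by mesenchymal cells, drives an inducible Cre that switches on a red reporter. The reporter was not used here, and the labels give neither age nor how many animals were pooled. The preparation used EGTA, Pronase and Collagenase in the perfused liver and then a Nycodenz gradient, and the study's methods add bead depletion of CD45+ leukocytes, so the leukocytes described are those the depletion left. The labels call the material whole liver cells, but cells named hepatocyte-like numbered 325 in the healthy and 0 in the CCl4 library, where 330 cells of few UMIs (cluster median 898.5) with 12 hepatocyte markers stayed unnamed because none of these led the cluster.

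With 1 library a group there is no replicate and no test. Levels are CPM, the share of a gene in the summed unique molecular identifiers (UMIs, the RNA molecules counted) of a class scaled to a fixed total, with exact Poisson 95% intervals in parentheses, and ratios are CCl4 over healthy with exact conditional binomial 95% intervals. The intervals cover counting error only. A gene was called higher or lower when it differed at least 2-fold with the interval on 1 side of 1, among genes with at least 10 UMIs in the class.

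Circulating leukocytes leave the blood in steps. The selectins Sele (E-selectin) and Selp (P-selectin) catch them and let them roll, Icam1, Icam2, Vcam1 and Madcam1 are immunoglobulin-family ligands that leukocyte integrins bind for firm arrest, and Pecam1, Cdh5 (VE-cadherin) and Esam sit at the junctions between endothelial cells through which they pass. The liver's capillaries, the sinusoids, rely less on selectins for this than venules elsewhere do, while its portal and central veins have a more ordinary endothelium.

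Filtering left 5602 cells of the healthy library, at a median of 6783.5 UMIs, and 7314 of the CCl4 library, at 11876 UMIs. The libraries shared 10 cell barcodes. Clusters were named from marker lists that held none of the members. Endothelial-like cells numbered 3549 in the healthy and 638 in the CCl4 library, mesothelial-like cells (the liver's surface lining) 235 and 1547, and stellate and mesenchymal-like cells 22 and 3133. Unnamed clusters held 189 healthy and 1466 CCl4 cells, among them a CCl4 cluster of 85 cells with endothelial and stellate markers together that was kept out of every class by a threshold set after the data were seen, while the healthy library had 0 such cells. The 24 endothelial markers summed to 35262 CPM in healthy and 21810 CPM in CCl4 endothelial-like cells, against 490 to 1625 CPM in mesothelial-like and mesenchymal-like cells, and none of the 24 was at 0 in either endothelial-like group.

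In the RefSeq tables for GRCm38.p6 (mm10) all 9 genes were found and 4 had a promoter window. The files list them as ENSMUSG00000026582 (Sele), ENSMUSG00000026580 (Selp), ENSMUSG00000037405 (Icam1), ENSMUSG00000001029 (Icam2), ENSMUSG00000027962 (Vcam1), ENSMUSG00000020310 (Madcam1), ENSMUSG00000020717 (Pecam1), ENSMUSG00000031871 (Cdh5) and ENSMUSG00000001946 (Esam). Sele lies on chromosome 1 at 164039614 to 164058487 and Selp beside it at 164115264 to 164150026, Vcam1 on chromosome 3 at 116110020 to 116129688, Cdh5 on chromosome 8 at 104101613 to 104144504, and Madcam1 on chromosome 10 at 79664559 to 79668542. Icam1 (21015940 to 21028814) and Esam (37528089 to 37538319) are on chromosome 9, and Icam2 (106377656 to 106388139) and Pecam1 (106654213 to 106715281) on chromosome 11. The 250 bases before a RefSeq start of the selectins are shown because Sele in endothelial-like and Selp in mesothelial-like cells were among the members called higher, and those of Icam1 because it was detected in nearly every class. Capitals mark matches to GGNNNTTCC, a form of the NF-kB site, or AGGAAG, a form of the ETS site, on either strand, motifs that were chosen after the sequences were read. All are on the plus strand, 5′ to 3′, at chr1:164047984-164048233 for Sele, chr1:164115014-164115263 for Selp and chr9:21015690-21015939 for Icam1.
Sele: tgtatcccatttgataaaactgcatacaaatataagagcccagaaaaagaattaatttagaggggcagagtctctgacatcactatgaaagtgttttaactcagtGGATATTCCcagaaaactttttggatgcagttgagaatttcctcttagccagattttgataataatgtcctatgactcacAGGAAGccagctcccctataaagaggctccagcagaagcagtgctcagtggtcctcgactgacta
Selp: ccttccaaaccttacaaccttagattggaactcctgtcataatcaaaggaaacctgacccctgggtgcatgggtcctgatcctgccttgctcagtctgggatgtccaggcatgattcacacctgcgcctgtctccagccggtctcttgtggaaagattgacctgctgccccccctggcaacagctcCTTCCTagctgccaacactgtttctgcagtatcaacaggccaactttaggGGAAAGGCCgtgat
Icam1: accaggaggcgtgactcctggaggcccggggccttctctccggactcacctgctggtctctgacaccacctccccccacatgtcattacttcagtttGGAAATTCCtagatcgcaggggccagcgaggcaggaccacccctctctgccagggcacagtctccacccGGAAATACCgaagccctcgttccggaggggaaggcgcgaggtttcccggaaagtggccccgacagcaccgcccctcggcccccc
The NF-kB form began 145 bases before the start in Sele, 14 bases before it in Selp, and 153 and 84 bases before it in Icam1. The ETS form began 65 bases before the start in Sele and 64 bases before it in Selp, and Icam1 had no match to it in this window. The window of Sele lies inside the span of the gene, before an internal start. Of 32841 windows of 250 bases, 15.7% hold the NF-kB form and 29.5% the ETS form, and the 2 forms do not overlap in these sequences. The fourth window, that of Madcam1, is not printed. It held the NF-kB form at 83 and 70 bases and the ETS form at 16 bases before the start. Madcam1 had 0 UMIs in the healthy and 11 in the CCl4 library. A match here describes the letters only.

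Among the 5 healthy classes of at least 20 cells, 8 of the 9 members were highest in endothelial-like cells with an interval clear of that of the class next in order, and the ninth, Madcam1, had 0 UMIs in the whole library. Endothelial-like cells held 98.9% of the healthy library's Icam2 UMIs, 98.8% of its Pecam1 UMIs, 98.7% of its Cdh5 UMIs, 99.4% of its Selp UMIs and 97.9% of its Sele UMIs. They held 93.6% of its Esam UMIs, with mesothelial-like cells carrying 5.16%. They held 73.7% of its Vcam1 UMIs and 64.3% of its Icam1 UMIs, with cholangiocyte-like cells (bile duct epithelium) carrying 21.6% and 23.8%. These shares follow how many cells of each class were sampled as well as the level in each cell. In cholangiocyte-like cells Icam1 stood at 51.8 CPM (48.5 to 55.3) and Vcam1 at 40.8 CPM (37.9 to 43.9), while Cdh5, which epithelium should lack, stood at 4.52 CPM. Hepatocyte-like cells, which should lack the junction genes too, had 18.1 CPM of Cdh5, 12.7 CPM of Esam and 10.1 CPM of Pecam1. Their Icam1 stood at 10.5 CPM (7.03 to 15.1). Healthy endothelial-like cells had 125 CPM of Icam1 and 649 to 879 CPM of the junction genes. Whether the Icam1 of hepatocyte-like cells came from RNA of other cells was not tested. Their median was 2908 UMIs, against 11690 in cholangiocyte-like cells.

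**Figure D1:**
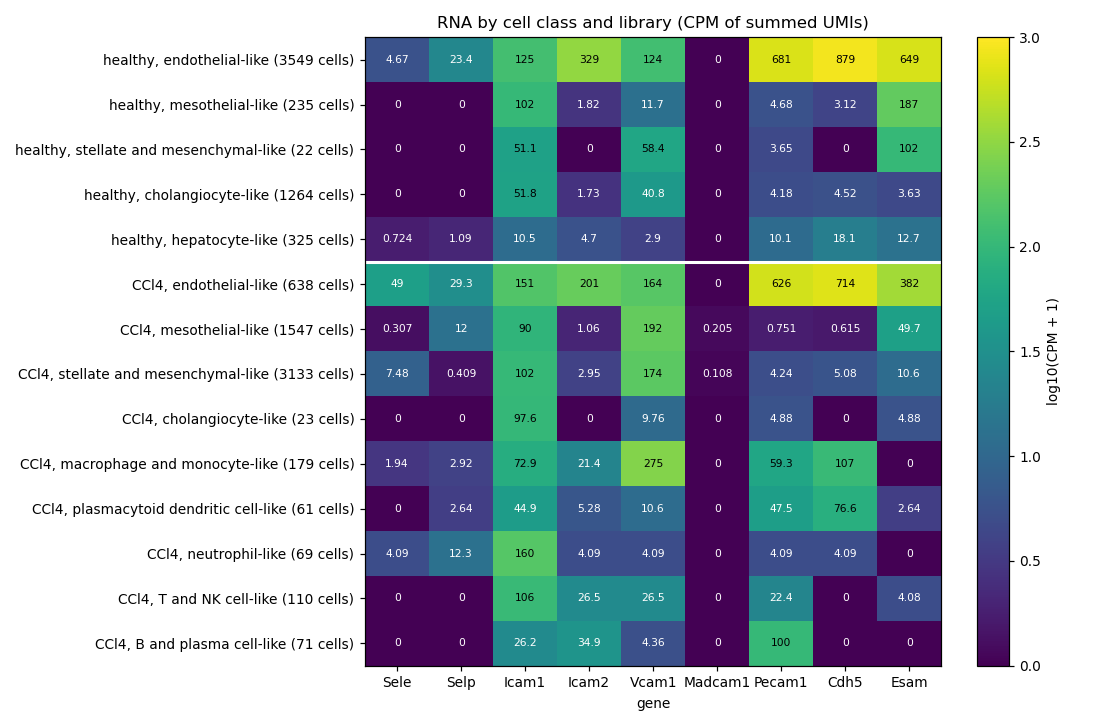
Level of each gene (columns) in each class of at least 20 cells (rows, healthy above the white line, CCl4 below), as CPM of summed UMIs printed in each square and coloured on a log10(CPM + 1) scale. Icam1 spans 26.2 to 160 CPM over the 9 CCl4 classes, whereas Cdh5 drops from 714 CPM in CCl4 endothelial-like cells to 107 CPM in the next class.

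In the CCl4 library the UMIs of the members were spread over more classes, which again follows the cells sampled as well as the level. By CPM, endothelial-like cells were still highest of the 9 classes for Sele, Selp, Icam2, Pecam1, Cdh5 and Esam. Only for Selp did the interval overlap that of the next class, neutrophil-like cells. Stellate and mesenchymal-like cells held 52.2% of the Sele UMIs, 52.0% of the Vcam1 UMIs and 54.6% of the Icam1 UMIs, and mesothelial-like cells held 66.9% of the Selp UMIs, 36.2% of the Vcam1 UMIs and 37.3% of the Esam UMIs. Endothelial-like cells, 8.72% of the CCl4 cells against 63.4% of the healthy cells, kept the largest part of the Icam2 (70.2%), Pecam1 (76.7%) and Cdh5 (75.8%) UMIs. They also held the largest part of the Esam UMIs, 1630 of 3897.

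Among endothelial-like cells, Sele was the member that differed most between the libraries. It had 94 UMIs in 39 of 3549 healthy cells and 209 UMIs in 85 of 638 CCl4 cells, which is 4.67 CPM (3.78 to 5.72) and 49.0 CPM (42.6 to 56.1). The ratio was 10.5 (8.18 to 13.5), and the intervals of the levels lie far apart. The share of cells with a Sele UMI was 1.10% in healthy and 13.3% in CCl4 cells, and 0.471% (0.258 to 0.789) and 5.94% (4.14 to 8.23) after every cell was thinned to 2000 UMIs, which left out 577 healthy and 76 CCl4 cells. The share in healthy cholangiocyte-like cells was 0 of 1264, which allows a level of up to 0.167 CPM by the floor of 3 counts.

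Sele was the 1 member of 8 with enough UMIs that was called higher, where 6.72% of all 13284 genes were called higher, and 0 of 8 members were called lower, where 15% of genes were. Leaving out a healthy cluster of 620 cells with few UMIs (median 1458) gave the same single call, with Sele at a ratio of 9.96, where 6.78% of genes were called higher and 14.8% lower. The median log2 ratio of the 8 members was 0.08, and that of all genes tested was -0.30, so ratios below 1 are read against that shift. Scaling by edgeR's TMM or DESeq2's size factors moved the median of all genes to -0.09 and -0.07, and the higher genes from 30.9% to 43.5% and 45.0% of those called, with the same single member called. The call of Sele was lost with 10 principal components, which left 12 CCl4 cells in the class and a ratio of 3.45, and its ratio was 5.91 when each library was clustered on its own. The clusters that make up the class differ between libraries. Healthy cells lay mostly in sinusoidal clusters with central markers (Wnt2, Kit, 1519 cells) and portal markers (Msr1, Ntn4, Dll4, 1098 cells), and 548 of the 638 CCl4 cells in a cluster led by Esm1 that held 24 healthy cells. Genes of mesenchymal cells also stood higher in CCl4 endothelial-like cells, with Col1a1, a collagen chain, at 205 CPM against 0.298 CPM in healthy ones, and 567 against 304 CPM summed over the 15 stellate markers. The level of Sele in CCl4 mesenchymal-like cells was 7.48 CPM. The part of this in the ratios was not tested.

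Selp, the selectin that endothelium stores for rapid release, was not called over the class. Its level was 23.4 CPM (21.3 to 25.6) in healthy and 29.3 CPM (24.4 to 34.9) in CCl4 endothelial-like cells, a ratio of 1.25 (1.02 to 1.53). When each library was clustered on its own the ratio was 0.305 and was called lower, so its direction over the class depends on the clustering. The pattern by vessel was steep in both libraries. In healthy cells Selp stood at 381 CPM (337 to 431) in a cluster of vein genes (Rspo3, Wnt9b, Vwf), 38.2 CPM (29.2 to 49.1) in a cluster of artery genes (Gja5, Vwf), 15.0 CPM (12.6 to 17.8) in central sinusoidal cells and 0.261 CPM (0.0316 to 0.942), from 2 UMIs, in portal sinusoidal cells. None of these 4 intervals overlap. The lymphatic genes Ccl21a and Mmrn1 are also among the leading genes of the vein cluster. In CCl4 cells it stood at 166 CPM (135 to 201) in the vein cluster and 6.32 CPM (3.96 to 9.58) in the cluster led by Esm1. Of the 185 healthy endothelial-like cells with a Selp UMI, 114 also had a UMI of Vwf, the clotting factor stored with P-selectin, against 289 of the 3364 without, at medians of 7980 and 5777 UMIs per cell.

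Sele had another order over healthy vessels. It was highest in the artery cluster at 43.2 CPM (33.6 to 54.7), lower in the vein cluster at 16.1 CPM (8.03 to 28.8), and close to the floor in central (0.549 CPM, 5 UMIs) and portal (1.17 CPM, 9 UMIs) sinusoidal cells, which do not differ beyond their intervals. In CCl4 cells it stood at 151 CPM (122 to 185) in the vein cluster, 135 CPM (85.7 to 203) in the artery cluster and 26.7 CPM (21.6 to 32.8) in the cluster led by Esm1. Within the vein cluster (90 healthy and 63 CCl4 cells) the Sele ratio was 9.40 (5.02 to 19.5), and within the artery cluster (198 and 26 cells) it was 3.13 (1.86 to 5.08). Both passed the rule, where 8.35% of genes in the vein cluster and 3.33% in the artery cluster were called higher. These comparisons within clusters were chosen after the data were seen. In the subcluster nearest the artery cluster, described below, 16 of the 20 CCl4 Sele UMIs came from 1 cell. The artery ratio may thus rest on few cells. Of the 85 CCl4 cells with a Sele UMI, 23 also had a Selp UMI, against 22 of the 553 without, and 62 also had an Icam1 UMI, against 230 of the 553. The former cells were deeper, at a median of 9006 against 6175 UMIs.

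The direction of Selp in veins rested on which CCl4 cells were taken as venous. Within the vein cluster it was called lower, from 381 to 166 CPM (135 to 201) with a ratio of 0.434 (0.342 to 0.548), where 12.2% of genes were called lower. The venous markers of the CCl4 cells in that cluster were also lower, with Vwf at 286 CPM against 2390 CPM and Rspo3 at 1200 CPM against 4325 CPM. The lymphatic genes Ccl21a and Mmrn1, which its healthy cells carried, were at 0 in its CCl4 cells. A subcluster with 4 lymphatic markers held 9 healthy and 0 CCl4 cells, so the healthy cells of the vein cluster may include lymphatic ones. When endothelial-like cells alone were clustered again, a vein subcluster held 110 healthy and only 9 CCl4 cells, and there Selp was called higher, at 367 CPM (328 to 410) and 758 CPM (588 to 963), a ratio of 2.07 (1.56 to 2.70), where 4.78% of genes were called higher and 3.36% lower. In that subcluster the Sele ratio was 28.7 (14.5 to 60.7) and the Icam1 ratio 2.20 (1.62 to 2.94), from 35 and 57 CCl4 UMIs, of which 14 and 18 came from 1 cell each. The Icam1 ratio was 0.826 (0.673 to 1.01) in the vein cluster and 0.704 (0.356 to 1.26) in the artery cluster. It was 0.833 (0.408 to 1.53) in the subcluster nearest the artery cluster. Within the artery cluster Selp was called lower on 61 healthy UMIs and 1 CCl4 UMI, a ratio of 0.154 (0.00384 to 0.890), where 7.14% of genes were called lower. In the nearest subcluster (198 healthy and 17 CCl4 cells) that call was lost at 0.202 (0.00504 to 1.17), while Sele was called higher at 3.58 (2.06 to 5.96), where 3.18% of genes were called higher and 5.82% lower. Of the 20 CCl4 Sele UMIs there, 16 came from 1 cell, which the interval does not allow for.

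**Figure D2:**
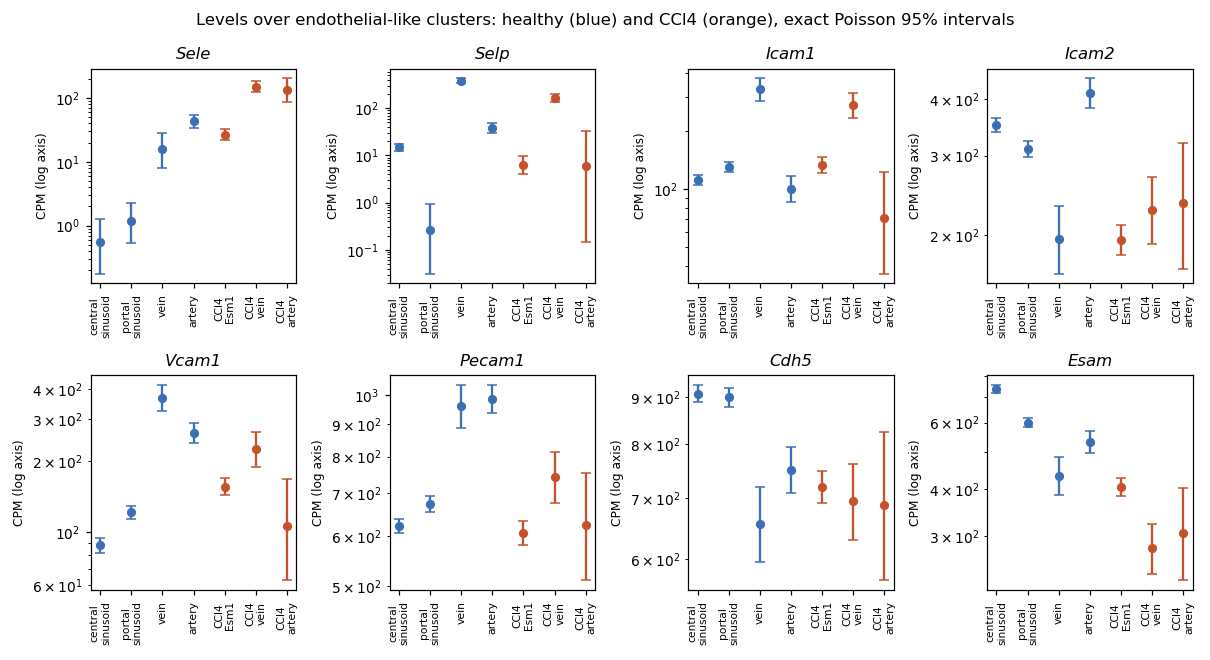
Level (CPM, log axis, each panel with its own range) of 8 genes in endothelial-like clusters, healthy in blue and CCl4 in orange, with exact Poisson 95% intervals. Selp peaks in the healthy vein cluster at 381 CPM and Sele in the CCl4 vein and artery clusters at 151 and 135 CPM, whereas Cdh5 stays between 655 and 908 CPM in all 7 populations.

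The immunoglobulin-family ligands differed less between the libraries in endothelial-like cells. Icam1, the ligand of LFA-1 and Mac-1 integrins, stood at 125 CPM (120 to 130) in healthy and 151 CPM (140 to 163) in CCl4 cells, a ratio of 1.21 (1.11 to 1.32). Vcam1, the ligand of VLA-4, stood at 124 CPM (119 to 129) and 164 CPM (152 to 176), a ratio of 1.32 (1.21 to 1.43). Icam2, a constitutive ligand of LFA-1, stood at 329 CPM (321 to 337) and 201 CPM (188 to 215), a ratio of 0.612 (0.569 to 0.657). These 3 ratios have intervals that leave out 1 but stay short of 2-fold, and were not called.

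Icam1 and Vcam1 shared the venous peak of Selp in healthy cells. Icam1 was at 330 CPM (289 to 376) in the vein cluster and between 100 and 130 CPM in the artery and both sinusoidal clusters. Vcam1 was at 368 CPM (324 to 417) in the vein cluster, 263 CPM (238 to 289) in the artery cluster, 122 CPM (114 to 130) in portal and 88.0 CPM (82.0 to 94.3) in central sinusoidal cells. Icam2 ran the other way, with 196 CPM (164 to 232) in the vein cluster and 413 CPM (382 to 445) in the artery cluster, the lowest and highest of the 4 healthy clusters. The Vcam1 ratio was 0.609 (0.491 to 0.752) within the vein cluster, whose CCl4 cells had lower venous markers. Within the artery cluster it was 0.402 (0.236 to 0.644), called lower on 18 CCl4 UMIs. In the nearest subcluster it was called lower too (0.379, 0.200 to 0.656), on 13 CCl4 UMIs of which 5 came from 1 cell. In the vein subcluster, with 9 CCl4 cells, the Vcam1 ratio was above 1, at 1.63 (1.18 to 2.21), as over the whole class. Madcam1, the ligand of the gut-homing integrin, had 0 UMIs in the 3549 healthy and 638 CCl4 endothelial-like cells, which allows up to 0.149 and 0.703 CPM by the floor of 3 counts. It had 11 UMIs in the whole CCl4 library, 6 in mesothelial-like and 5 in mesenchymal-like cells.

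The junction genes were abundant in endothelial-like cells of both libraries. Pecam1, a homophilic molecule of the leukocyte passage, stood at 681 CPM (669 to 692) and 626 CPM (603 to 650), a ratio of 0.920 (0.882 to 0.959). Cdh5, the cadherin of endothelial junctions, stood at 879 CPM (866 to 892) and 714 CPM (689 to 740), a ratio of 0.813 (0.782 to 0.845). Esam, a tight junction molecule, stood at 649 CPM (638 to 660) and 382 CPM (364 to 401), a ratio of 0.589 (0.559 to 0.620). None was called, and the ratio of Pecam1 went above 1 with TMM (1.06) and DESeq2 (1.08) scaling. The Esam ratio was 0.642 (0.529 to 0.778) in the vein cluster, 0.947 (0.664 to 1.32) in the vein subcluster and 0.574 (0.425 to 0.760) in the artery cluster. The Icam2 ratio was 1.16 in the vein cluster, 0.932 in the vein subcluster and 0.570 in the artery cluster.

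**Figure D3:**
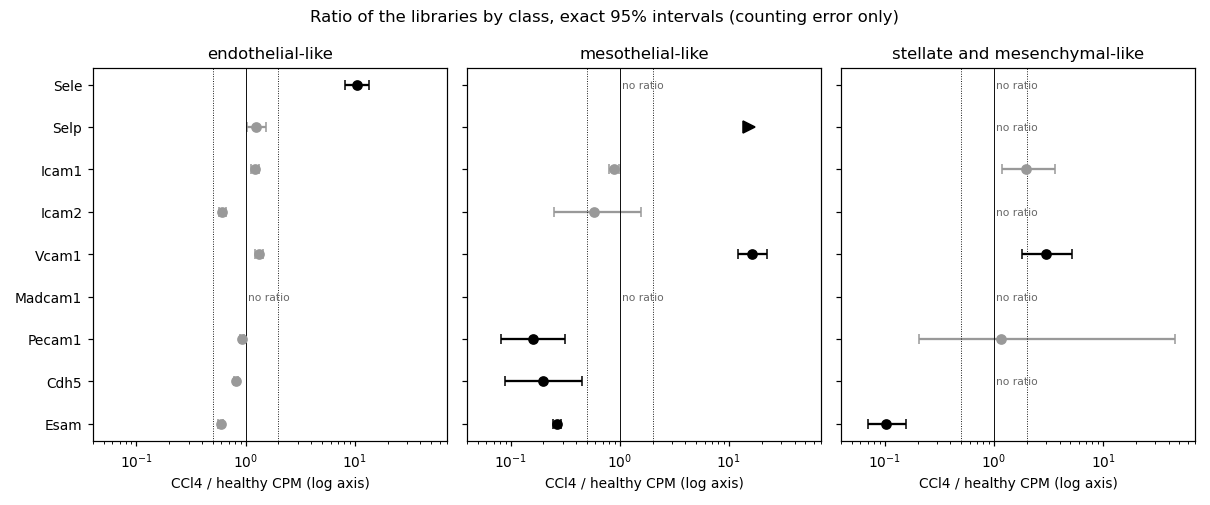
Ratio of CCl4 to healthy CPM (log axis) in the 3 classes with exact 95% intervals, black where called and grey where not. The dotted lines mark 2-fold and the triangle the ratio to the healthy floor where the healthy count was 0. Sele stands apart in endothelial-like cells at 10.5, and Vcam1 at 16.4 in mesothelial-like cells.

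In mesothelial-like cells Vcam1 and Selp were called higher and Esam, Pecam1 and Cdh5 lower. Vcam1 had 45 UMIs in 30 of 235 healthy cells and 5616 UMIs in 1151 of 1547 CCl4 cells, at 11.7 CPM (8.54 to 15.7) and 192 CPM (187 to 197), a ratio of 16.4 (12.2 to 22.5). Both groups were deep, with medians of 18285 and 18362 UMIs per cell, and after thinning the share of cells with a Vcam1 UMI was 1.84% (0.527 to 4.55) and 26.9% (24.7 to 29.2). The level was high in both CCl4 clusters of the class, at 165 CPM (159 to 172) in the cluster led by Prg4 and Adra2a and 223 CPM (215 to 231) in the cluster led by Serpinb2, against 11.8 CPM (8.60 to 15.8) in the healthy cluster led by Myl7 and Prph. The summed level of the 13 mesothelial markers differed too, at 26728 CPM in the healthy cluster, 6160 CPM in the Prg4 cluster and 2859 CPM in the Serpinb2 cluster, with none of the 13 at 0 in any of them. The Serpinb2 cluster, 659 of the 1547 CCl4 cells, was named on 4 of these markers, and 3 fibroblast and myofibroblast markers were enriched in it too. Its name is thus less sure. The class held 944 CCl4 cells at resolution 2 and 905 when each library was clustered on its own. CCl4 neutrophil-like and B and plasma cell-like cells, which should lack Vcam1, had 4.09 and 4.36 CPM, from 1 UMI each. Other CCl4 classes had more, with 26.5 CPM (14.1 to 45.3) from 13 UMIs in T and NK cell-like cells. Plasmacytoid dendritic cell-like cells had 10.6 CPM and cholangiocyte-like cells 9.76 CPM.

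Selp was the other member called higher in the class. It had 0 UMIs in 235 healthy mesothelial-like cells and 352 UMIs in 192 of 1547 CCl4 cells, a level of 12.0 CPM (10.8 to 13.3) that is at least 15.4-fold higher than the floor of 3 counts in the healthy cells. Of these UMIs 349 were in the Prg4 cluster, at 22.1 CPM (19.9 to 24.6), and 3 in the Serpinb2 cluster. Without the Serpinb2 cluster the level was 28.4 times that floor, with a lower limit of the ratio of 23.0, where 11% of genes were called higher and 12.5% lower. All 192 cells with a Selp UMI also had a UMI of the mesothelial genes Msln or Upk3b, against 1003 of the 1355 without. Platelets and endothelium are the usual sources of P-selectin, and 3 of the 192 cells had a UMI of the platelet genes Pf4 or Ppbp, against 100 of the 1355, and 6 of Pecam1 or Cdh5, against 33. The cells without a Selp UMI include most of the Serpinb2 cluster, so these shares also compare clusters. Per Pecam1 UMI there were 16.0 Selp UMIs (10.4 to 25.9) in CCl4 mesothelial-like cells and 0.0468 (0.0388 to 0.0560) in CCl4 endothelial-like cells, both over the whole class. Whether this Selp came from RNA of other cells was not tested.

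Esam was called lower in mesothelial-like cells, at 187 CPM (174 to 201) in healthy and 49.7 CPM (47.1 to 52.3) in CCl4 cells, a ratio of 0.265 (0.242 to 0.290). It was found in 202 of 235 healthy cells, far above the 3.63 CPM of cholangiocyte-like cells. Pecam1 (18 and 22 UMIs) and Cdh5 (12 and 18 UMIs) were also called lower, with ratios of 0.161 (0.0822 to 0.318) and 0.197 (0.0898 to 0.448). Their healthy levels of 4.68 and 3.12 CPM overlapped in their intervals the 4.18 and 4.52 CPM of cholangiocyte-like cells, and whether they come from free RNA was not tested. Icam1 had like levels, at 102 CPM (91.9 to 112) and 90.0 CPM (86.6 to 93.5), a ratio of 0.885 (0.796 to 0.987) that was not called. Icam2 had 7 and 31 UMIs, and Sele 0 and 9, too few for a direction.

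Of the 7 members with enough UMIs in mesothelial-like cells, 2 were called higher, where 11.7% of 14147 genes were, and 3 were called lower, where 14.2% were. The median log2 ratio of these members was -0.86, and the same with Selp at its ratio to the floor, since Selp lies at the upper end. That of all genes tested was -0.09. The class is made of different clusters in the libraries, so a change of state and a different kind of surface cell cannot be told apart.

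**Figure D4:**
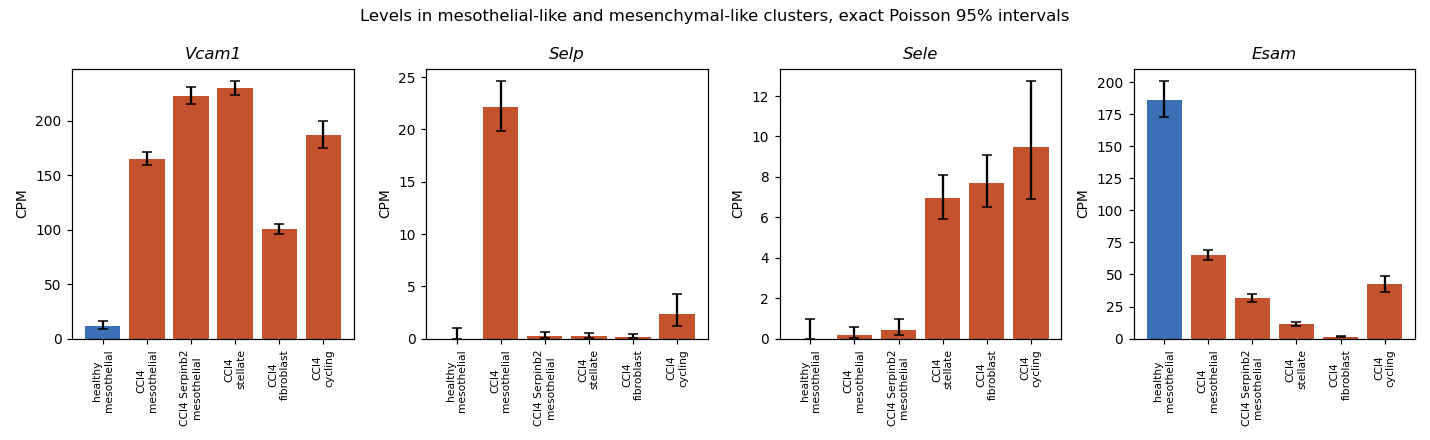
Level (CPM, bars from 0) of Vcam1, Selp, Sele and Esam in the healthy mesothelial-like cluster (blue) and 5 CCl4 clusters (orange), with exact Poisson 95% intervals. Selp stands at 22.1 CPM in 1 mesothelial-like cluster and under 3 CPM elsewhere, and Sele between 6.94 and 9.48 CPM in the mesenchymal-like clusters.

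Stellate and mesenchymal-like cells, the pericytes and fibroblasts of the liver, could be compared only against 22 healthy cells. Vcam1 had 16 healthy and 8080 CCl4 UMIs, at 58.4 CPM (33.4 to 94.8) and 174 CPM (170 to 178), a ratio of 2.98 (1.83 to 5.21) that was called higher. The call ended in the stellate cluster alone, where 6 healthy cells had 177 CPM (84.9 to 326) and 1609 CCl4 cells 230 CPM (224 to 236), a ratio of 1.30 (0.705 to 2.71), where 1.48% of genes were called higher and 5.04% lower. Esam was called lower, from 102 CPM (67.9 to 148) to 10.6 CPM (9.65 to 11.5), a ratio of 0.103 (0.0706 to 0.157), but 20 of its 28 healthy UMIs came from 8 cells of the smooth muscle cluster. Without that cluster the ratio was 0.269 (0.136 to 0.627), on 8 healthy UMIs. In the stellate cluster alone it was 0.0899 (0.0430 to 0.226), on 7 healthy UMIs in 6 cells. Without the smooth muscle cluster 4.39% of genes were called higher and 14.7% lower. Icam1 stood at 51.1 CPM (27.9 to 85.7) and 102 CPM (98.8 to 105), a ratio of 1.99 (1.18 to 3.64) just under the rule. Icam1 passed it, at 2.73, with TMM factors, which moved the median log2 ratio of all genes from -0.57 to -0.11 and the higher genes from 23.2% to 49.5% of those called (48.8% with DESeq2 factors). By the main scaling 1 of 8 members was called higher, where 4.61% of 14589 genes were, and 1 was called lower, where 15.3% were.

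Within the CCl4 library the mesenchymal-like clusters differed from each other. In the stellate cluster (Lrat, Rgs5, Colec10), which holds the vitamin A storing pericytes of the sinusoid, Vcam1 was at 230 CPM and found in 86.9% of cells, and in the fibroblast cluster (Mfap4, Thbs4) at 100 CPM (95.8 to 105) and in 60.6%. Median depths were alike, at 14181 and 13850.5 UMIs per cell. Icam1 had the reverse order, at 87.7 CPM (84.0 to 91.6) and 120 CPM (115 to 125). Esam followed Vcam1, at 11.1 CPM (9.83 to 12.6) in the stellate and 1.36 CPM (0.878 to 2.0) in the fibroblast cluster.

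Sele was found in CCl4 mesenchymal-like cells at 7.48 CPM (6.72 to 8.31), from 348 UMIs in 163 of 3133 cells, 5.20% of them (1.14% after thinning). The level was alike in the stellate (6.94 CPM, 5.92 to 8.10) and fibroblast (7.71 CPM, 6.49 to 9.08) clusters, and 0.307 CPM (0.141 to 0.584) in CCl4 mesothelial-like cells of greater depth. Of the 163 cells, 158 had a UMI of the pericyte receptor Pdgfrb, against 2822 of the 2970 cells without Sele, and 13 a UMI of Pecam1 or Cdh5, against 112. The cells with Sele were deeper, at a median of 17306 against 14018 UMIs. There were 1.77 Sele UMIs (1.48 to 2.11) per Pecam1 UMI in CCl4 mesenchymal-like cells and 0.0783 (0.0677 to 0.0901) in CCl4 endothelial-like cells, both over the whole class. Whether this Sele came from RNA of other cells was not tested. The cycling mesenchymal-like cluster had Sele at 9.48 CPM but also Cdh5 at 36.8 CPM, against 1.93 CPM in the stellate cluster. In the 22 healthy cells Sele had 0 UMIs, whose floor of 10.9 CPM is above the CCl4 level, so the libraries cannot be compared.

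Among the leukocytes that remained, macrophage and monocyte-like cells carried Vcam1 and Cdh5. In 179 CCl4 cells Vcam1 stood at 275 CPM (244 to 309) and Cdh5 at 107 CPM (87.8 to 129), while Esam had 0 UMIs (up to 2.92 CPM by the floor), and in 12 healthy cells Vcam1 stood at 469 CPM (364 to 594) and Cdh5 at 358 CPM (268 to 470). The 71 CCl4 cells with a UMI of Clec4f or Vsig4, genes of resident Kupffer cells, had Vcam1 at 576 CPM (506 to 654) and Cdh5 at 254 CPM (208 to 307), and the other 108 had 65.8 CPM (47.0 to 89.7) and 4.94 CPM (1.02 to 14.4). Pecam1 had the opposite order, at 16.6 CPM (6.68 to 34.2) and 88.9 CPM (66.8 to 116). Of the 36 cells with a Cdh5 UMI, 5 had a UMI of the endothelial genes Kdr, Ptprb or Egfl7, against 12 of the 143 without. Cdh5 was also at 76.6 CPM and Pecam1 at 47.5 CPM in 61 plasmacytoid dendritic cell-like cells, with Esam at 2.64 CPM. Pecam1 stood at 100 CPM in 71 B and plasma cell-like cells, in which Cdh5 and Esam had 0 UMIs. Icam1 was highest in 69 neutrophil-like cells at 160 CPM, an interval that overlaps that of endothelial-like cells.

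The other genes of adhesion and extravasation were counted in 4 lists of 59 genes in all, partners of the members, other adhesion and junction genes with homing signals, inflammatory receptors and NF-kB genes, and endothelial transcription factors. Counts are of those with enough UMIs in the class. In endothelial-like cells, where 6.72% of all genes were called higher and 15% lower, 3 of 13 inflammatory genes were called higher and 0 lower, 3 of 24 adhesion and junction genes higher and 3 lower, 1 of 4 partners higher and 1 lower, and 1 of 10 factors higher and 2 lower. The largest ratios were those of Cd44, a hyaluronan receptor and selectin ligand, at 0.199 and 3.52 CPM, Cxcl12, a homing chemokine, at 5.67 and 59.8 CPM, and Erg, an endothelial ETS factor, at 16.8 and 135 CPM, a ratio of 8.05 (7.03 to 9.24). The Cd44 ratio rested on 4 healthy and 15 CCl4 UMIs, and Cd44 stood at 118 CPM in CCl4 mesothelial-like and 48.0 CPM in CCl4 mesenchymal-like cells. Cxcl12 stood at 2040 CPM in CCl4 mesenchymal-like cells and Erg at 1.25 CPM. The lowest ratios, those of Itgb7, Gcnt1 and Bst1, rested on 120, 43 and 52 healthy and 3, 2 and 3 CCl4 UMIs.

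In mesothelial-like cells 6 of 13 inflammatory genes were called higher and 0 lower, where 11.7% of all genes were called higher and 14.2% lower, and their median log2 ratio was 0.98 against -0.09 for all genes. Tnfaip3, a feedback inhibitor of NF-kB, stood at 2.86 and 85.6 CPM, a ratio of 29.9 (16.7 to 60.0), and Cxcl12 at 0.780 and 252 CPM, a ratio of 323 (110 to 1567) on 3 healthy UMIs. Ackr1, a chemokine carrier of venules, had 0 and 40 UMIs. Of 25 adhesion and junction genes 6 were higher and 6 lower, of 5 partners 1 was higher and 0 lower, and of 8 factors 1 was higher and 1 lower. Bst1, a surface enzyme, was called lower at 684 and 85.3 CPM, and Sox17 (8 and 2 UMIs) and Cldn5 (18 and 18 UMIs) were called lower on few UMIs.

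In mesenchymal-like cells 2 of 13 inflammatory genes, 1 of 5 partners and 1 of 10 factors were called higher and 0 lower, and 2 of 24 adhesion and junction genes were higher and 8 lower, where 4.61% of all genes were called higher and 15.3% lower. Il1r1, the interleukin 1 receptor, stood at 36.5 and 131 CPM, and Cd34 and Cd44 had 4 healthy UMIs each. The genes with the lowest ratios, Ocln, Aoc3 and Mcam, had 12, 18 and 38 healthy UMIs, and Aoc3, a vascular adhesion amine oxidase, is among the leading genes of the smooth muscle cluster.

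Over 14 class-by-library sums of at least 20 cells, the genes most like each member were taken from 7728 genes by Pearson r of log2(CPM + 10). These sums share libraries and depth, and r is given as a description. Pecam1 and Icam2 were each other's nearest at 0.96, followed by Fcgr2b, an inhibitory Fc receptor, at 0.93 for Pecam1 and 0.94 for Icam2, with Rasgrp3 (0.93) next for Pecam1 and Ap1b1 (0.94) for Icam2. Sele was nearest to Esm1 (0.94), Nts (0.94) and Asb4 (0.93), which lead CCl4 or venous endothelial-like clusters, and Selp to Nhsl2 (0.89), Gm14226 (0.88) and Stim2 (0.88). Cdh5 was nearest to Dnase1l3 (0.94), Il1a (0.93) and Slc9a9 (0.93), Esam to Prickle1 (0.94), Id4 (0.94) and Mapk12 (0.94), Vcam1 to Cxcl16 (0.88), Lgmn (0.86) and Spred1 (0.85), and Icam1 to Dctn1 (0.96), Shoc2 (0.91) and Hk1 (0.87).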

How the data were processed

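The authors deposited raw UMI counts per gene and cell, as filtered matrices made, per the file headers, with Cell Ranger 3.1.0 (healthy, 6297 cells, 51122846 UMIs, 31053 genes) and 6.0.1 (CCl4, 8460 cells, 97611831 UMIs, 32285 genes). Different software and gene lists cannot be told apart from the groups. The submitters' processing notes name both mm10 and the human build GRCh38, and which was used for these matrices is not given there. The genes are mouse Ensembl identifiers, and coordinates are RefSeq's. Genes were matched by Ensembl identifier (99.9% and 99.6% of UMIs on the shared list). The lowest cell held 500 UMIs. Cells needed 200 genes and at most 30% mitochondrial UMIs (339 and 504 removed), and Scrublet in scanpy 1.11.5 removed 277 and 487 doublets at 0.8% expected per 1000 cells. Joint clustering used no integration (2000 variable genes, 30 principal components, 20 neighbours, Leiden resolution 1), with the members and the adhesion lists left out of the variable genes and of naming. Of 29 clusters 22 were named in 11 classes from at least 3 markers. UMIs were summed per class and library, with Poisson, conditional binomial and Clopper-Pearson 95% intervals. With 1 library per group no p-value was computed, and nothing says whether a library was 1 animal or several. The calling rule was run on simulated data for the endothelial-like, mesothelial-like and mesenchymal-like comparison. It called 98%, 99.5% and 95% of 200 changed genes and 0.536%, 0.616% and 1.47% of unchanged genes. Both simulated libraries were drawn with counting error alone, so coverage of about 95% or more was fixed by the design. The intervals covered the set ratio for 95.9%, 96.1% and 97.5% of unchanged genes. Variation between animals or preparations was not tested, and recovery depends on the size of the planted change. These rates are therefore not error rates for a comparison with 1 library per group. Factors of edgeR 4.0.16 (TMM) and DESeq2 1.42.0 served as other scalings. All members are named, with the 3 genes most like each, and from the adhesion lists the 3 called genes furthest from 1 in each direction per contrast. Members, lists and markers were chosen with earlier results of these data known.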

Additional observations from a re-analysis of the deposited data

Results flagged for a closer look

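Icam1 differed in direction between classes. The ratio of CCl4 to healthy CPM was 1.21 (1.11 to 1.32) in endothelial-like, 0.885 (0.796 to 0.987) in mesothelial-like and 1.99 (1.18 to 3.64) in mesenchymal-like cells, and the first and the third lie on the other side of 1 from the mesothelial ratio. The difference was not tested, since each class has 1 library a group, and the mesothelial ratio was 0.9995 with TMM and 0.994 with DESeq2 factors. The endothelial ratio was 0.826 (0.673 to 1.01) within the vein cluster, 0.704 (0.356 to 1.26) within the artery cluster and 2.20 (1.62 to 2.94) in the vein subcluster.

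Signal was also seen in cells that no comparison used. The unnamed CCl4 cluster of 85 cells with endothelial and stellate markers, at a median of 21715 UMIs, had Cdh5 at 310 CPM (285 to 337) from 569 UMIs and Vcam1 at 279 CPM (255 to 304) from 511 UMIs. Each was found in most of its cells, Cdh5 in 81 and Vcam1 in 82 of 85. The cluster also held Sele at 45.3 CPM (36.1 to 56.1), while Vwf was at 0. CCl4 endothelial-like cells had Cdh5 at 714 CPM and stellate cells Vcam1 at 230 CPM. Whether these droplets held more than 1 cell was not tested.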

How the results depend on the processing

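No paired analysis was possible because each group has 1 library and no result comes from a test. No ratio called in the 3 classes turned its direction under the alternatives run. Of the counts of members recomputed under them, 75 stayed within 1.5 times their value and 13 did not. In stellate and mesenchymal-like cells 2 members (Icam1 and Vcam1) were called higher with TMM or DESeq2 factors, with every cell weighing the same or with no mitochondrial limit, and 0 in the stellate cluster alone. When each library was clustered on its own, 4 (Icam2, Pecam1, Cdh5 and Esam) were called lower. The healthy cells of that class then numbered 33 in place of 22, so its make-up had changed. In endothelial-like cells 10 principal components left 12 CCl4 cells in the class and called 2 members higher (Icam1 and Vcam1) and 2 lower (Icam2 and Cdh5), with Sele no longer called at 3.45, and clustering each library on its own called 1 lower (Selp). The shares of all genes called were not computed for these re-clustered classes, so such counts are not read as results about the members. Settings within vessels, chosen after seeing the data, called 2 lower in the artery cluster, 1 lower in the vein cluster, 1 lower in the large vessel subcluster and 3 higher in the vein subcluster. The Sele ratio in endothelial-like cells ran from 3.13 to 28.7 and the Vcam1 ratio in mesothelial-like cells from 14.1 to 19.9 over these settings. The mesenchymal-like comparison is limited by 22 healthy cells.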
